A study of Mus musculus with 2 samples.

Results

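Accessible chromatin was examined at 9 genes of the retinoic acid pathway in the stomach of newborn mice. The genes were the receptors Rara, Rarb, Rarg and Rxra, the synthesis enzymes Aldh1a2 and Aldh1a3, the breakdown enzymes Cyp26a1 and Cyp26b1, and the uptake receptor Stra6. All 9 were found in the GENCODE M21 annotation, among 21911 protein-coding genes. The locus of a gene was its body with 10 kb on either side, on mouse build mm10. The 9 loci held 84 of the 105606 regions that were accessible in both replicates.

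The tissue was stomach of B6NCrl mice at postnatal day 0, and the sample label does not say which part of the organ. It was assayed by DNase-seq, in which DNase I cuts DNA preferentially where nucleosomes are absent. There was 1 group with 2 biological replicates of 1 library each and no treatment, mutation or second age. Both libraries carry the same donor label, so they may not be separate animals, the sex was not collected, and 2 sequencing instruments are named for replicate 2 alone. With 1 group of 2 libraries no test was possible, and every value below is a description, with the same value over all genes or regions beside the main counts.

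Retinoic acid is made from retinol, which Stra6 can take up from its carrier in blood, by an oxidation to retinal followed by the irreversible step of the Aldh1a enzymes. It binds the receptors Rara, Rarb and Rarg, which sit on DNA as pairs with an RXR such as Rxra, and the Cyp26 enzymes clear it by hydroxylation. The receptor pair binds direct repeats of a short half-site, classically with a spacer of 5 bases (DR5), and Rarb and Cyp26a1 are known as genes that the hormone itself induces through such repeats. Aldh1a2 is the main synthesis enzyme of embryonic mesoderm, and the pathway is known for its part in laying out the foregut.

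Replicates 1 and 2 had 139654 and 153178 deposited peaks. A shared region is a peak of one replicate joined with any peak of the other that it overlaps by 1 bp or more. Of the peaks, 77.6% in replicate 1 and 70.7% in replicate 2 were in such a region. Read depth is unknown for both libraries, so a missing peak is a site that was not called at an unknown depth. The deposited signal of a peak is a whole number up to 150 with no stated unit, and it is given here with its percentile within the list of its own replicate. A promoter was called open when a shared region lay within 1 kb of an annotated start. By that rule 66.4% of all protein-coding genes were open. Of the marker genes, 13 of 13 for gastric epithelium and 5 of 5 for smooth muscle were open. The other marker counts were 2 of 4 for stomach mesenchyme, 1 of 4 for enteric neurons and glia, 2 of 3 for endothelium, 2 of 4 for immune cells, 0 of 3 for erythroid cells, 1 of 3 for hepatocytes, 0 of 3 for pancreas, 0 of 2 for cardiac muscle and 0 of 2 for brain. In a tissue sample a region open in few cells cannot be told apart from one that is weakly open in many.

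The DR5 repeats of the 9 loci are shown first, because a single one of them lay in a shared region. That repeat lay whole in the peak of replicate 1 and in part in that of replicate 2. The half-site searched was 6 bases long, with a purine, then G, then G or T, then TCA, on both strands. It gave 9 DR5 matches. Each is printed 5′ to 3′ on the strand of the match, from the RefSeq sequence of the same build (GRCm38), with the repeat and its spacer in capitals and 6 flanking bases in lower case.
Rarb, at the start of Rarb-201, chr14:16575507-16575535, minus strand: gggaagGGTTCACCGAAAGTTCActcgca
Rarb, in an intron of the outer transcripts, chr14:16586245-16586273, plus strand: ggatgtGGTTCAGGAGAGGGTCAagacta
Rarb, in an intron, nearest to the outer starts, chr14:16809434-16809462, minus strand: gtactaGGTTCATGGTTGGGTCAcctata
Rara, upstream of the start of Rara-202, chr11:98960002-98960030, plus strand: caggcgAGTTCAGCAAGAGTTCAgccgaa
Rarg, upstream of the start of Rarg-206, chr15:102250811-102250839, minus strand: ggtcagGGTTCAAAGTGAGGTCAcggtat
Cyp26a1, next to its start, chr19:37697770-37697798, minus strand: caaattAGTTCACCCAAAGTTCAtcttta
Cyp26a1, farther upstream, chr19:37695903-37695931, plus strand: ctgcagGGGTCACAGGCGGGTCAggctaa
Cyp26b1, downstream flank, chr6:84566628-84566656, plus strand: tcaggaAGGTCAGGGTAAGGTCAtgccca
Stra6, near the end of the gene, chr9:58150647-58150675, minus strand: ggagccAGGTCACACACAGTTCAagtatg

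The first of these is the classical retinoic acid response element of the Rarb promoter, and it was the DR5 of the 9 that lay in a shared region. Its centre was 22 bp inside the first exon of Rarb-201, and the region around it, chr14:16575496-16575665, had signals of 66 and 83 in replicates 1 and 2. The peak of replicate 1 held 17 of the 17 bases of the repeat, and the peak of replicate 2 held 14 of 17, so the repeat sat near the edge of both peaks. The hotspots around it, which are wider stretches of enriched cutting, had a −log10 q of 100 in both replicates, the highest value in the files. That value was common, held by 38.9% of all hotspots of replicate 1 and 39.4% of those of replicate 2. Of the 84 regions of the loci, 22 lay in hotspots at that value in both replicates. The same count over all shared regions is not reported here. The shares of 38.9% and 39.4% are of hotspots in single replicates, so they are no background for it. Genome-wide, 1.29% of 9284 DR5 matches lay in a shared region, with a 95% Wilson interval of 1.08 to 1.54% that covers counting error only, and 2.5% lay in a shared hotspot. Among the 186 DR5 matches within 500 bp of a protein-coding start the share was 4.84%, against 1.22% of the 9098 others.

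The response element next to the start of Cyp26a1 had no peak over it. It was centred 14 bp upstream of the start of Cyp26a1-201. The nearest peak of replicate 2 was 64 bp away and that of replicate 1 was 6264 bp away, and no hotspot of either replicate covered it. The 150 bases before the start, chr19:37697648-37697797, are printed on the plus strand, with the repeat in capitals as its reverse complement, to show how close it lies to the start.
Cyp26a1-201, bases before the start: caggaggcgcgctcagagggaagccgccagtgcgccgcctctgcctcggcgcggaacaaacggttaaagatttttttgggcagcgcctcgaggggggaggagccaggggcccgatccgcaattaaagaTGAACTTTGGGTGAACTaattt

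The DR5 of Rara was centred at -396 bp from the start of Rara-202, between a pair of strong regions. It was 283 bp from the nearest peak of replicate 1, with a signal of 105, and 303 bp from that of replicate 2, with a signal of 108, and no hotspot covered it. The DR5 of Stra6 was 387 and 407 bp from the nearest peaks of replicates 1 and 2. The Rarg match was 1003 and 1092 bp away and shares bases with a repeat of spacing 1. The strict form of the half-site, AGGTCA on both sides of the spacer, occurred in the Cyp26b1 match, which was 7346 bp from the nearest peak of either replicate. No DR5 was found in the Rxra, Aldh1a2 and Aldh1a3 loci.

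Across spacings of 0 to 8 bases the 9 loci held 56 direct repeats of the half-site, and the Rarb element at the start of Rarb-201 was the one in a shared region and the one in a hotspot of either replicate. Spacings 1 and 2, which the same receptor pair can bind, had 7 and 11 matches in the loci with none in a shared region. Genome-wide, 1.25% of DR1 matches and 0.371% of DR2 matches lay in one. The share of DR5 was the highest of the 9 spacings, but its interval overlapped that of DR1, 1.09 to 1.43%, and the other spacings were between 0.371 and 0.785%. The same half-sites read backwards, at the same spacings, gave shares between 0.566 and 0.969%. A match is a run of letters and not a measured binding site, and where none is accessible nothing is shown about the receptors.

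**Figure D1:**
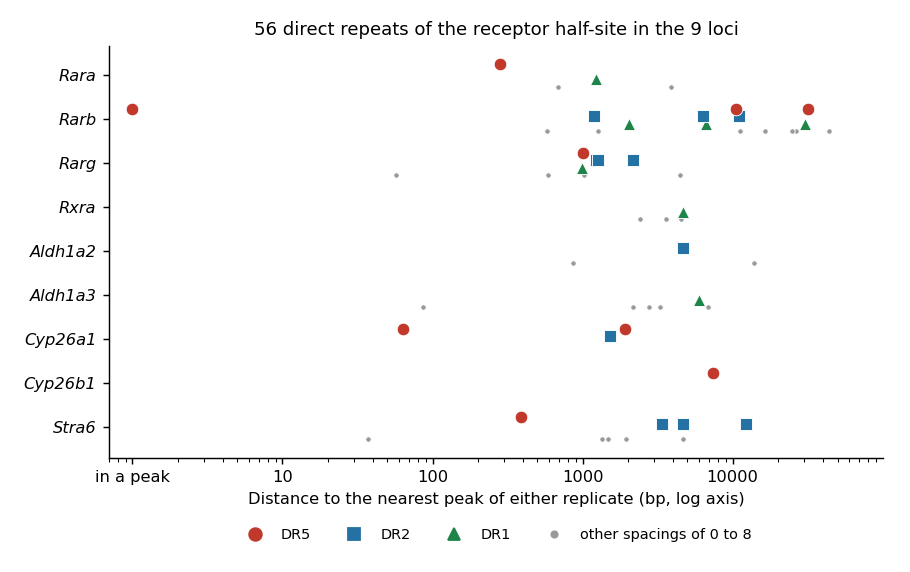
Distance from each of the 56 direct repeats in the 9 loci to the nearest peak of either replicate, in bp on a log axis, with 1 row per gene and 1 symbol per repeat. The Rarb DR5 is the point inside a peak, the DR5 next to the Cyp26a1 start is 64 bp from a peak of replicate 2, and the DR1 and DR2 matches are all at least 996 bp from a peak.

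Of the 9 genes, 6 had an open promoter, against 66.4% of all protein-coding genes, so the count was close to the background. They were Rara, Rarb, Rarg, Rxra, Aldh1a2 and Cyp26b1. In replicate 1 alone 7 of 9 had a promoter peak, against 68.2% of genes, and in replicate 2 alone 8 of 9, against 69.4%. With shared hotspots in place of shared regions the count was again 6 of 9, against 66.8%. The genes without an open promoter were Aldh1a3, Cyp26a1 and Stra6.

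Starts up to 500 bp apart were chained, which gave 33 start groups for the 9 genes, and 15 of them had a shared region within 1 kb, against 39.5% of 52508 start groups genome-wide. A start group was called CpG-rich when the 1000 bases around it had an observed over expected CpG ratio of at least 0.6 and a GC content of at least 50%. Of the CpG-rich groups 7 of 9 had a shared region, against 92.6% genome-wide, and of the other groups 8 of 24 did, against 23.9%. The CpG-rich groups without one were the outermost start of Aldh1a3, with a ratio of 0.69, and the start of Cyp26a1, with a ratio of 0.73.

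**Figure D2:**
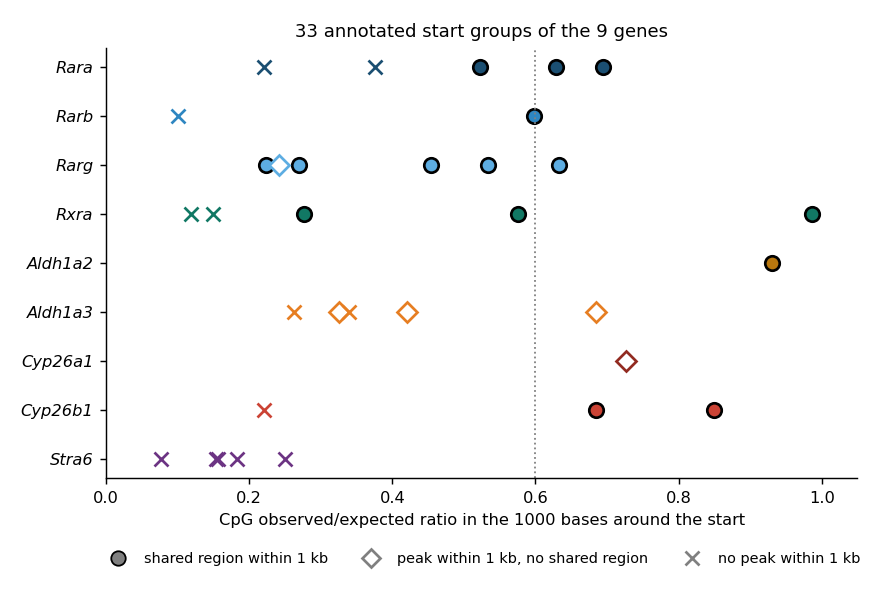
CpG observed over expected ratio in the 1000 bases around each of the 33 start groups, with 1 row per gene; filled circles have a shared region within 1 kb, diamonds have a peak but no shared region, and crosses have no peak. All 5 start groups of Stra6 are crosses with low ratios, and the 2 diamonds to the right of the dotted line at 0.6 are the outermost Aldh1a3 start and the Cyp26a1 start.

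Among the receptors, Rara, the broadly expressed retinoic acid receptor, had the strongest promoter region of the 9 genes. The region chr11:98937496-98937665 lay 33 bp upstream of the nearest start, that of Rara-204, which Rara-201 shares within the chain, had signals of 114 and 122 in replicates 1 and 2, and stood at percentiles 98.8 and 99.1 of the lists. It lay in an intron of the longer Rara-203 transcript and in a shared hotspot 1747 bp wide. Its 170 bases on the plus strand are printed because no other region of the 9 loci ranked as high. The capitals mark 3 copies of the GC box GGGCGG on either strand, known as the site of Sp factors, and a CCAAT-type string CCAATCA on the minus strand, known as the site of NF-Y.
Rara_4: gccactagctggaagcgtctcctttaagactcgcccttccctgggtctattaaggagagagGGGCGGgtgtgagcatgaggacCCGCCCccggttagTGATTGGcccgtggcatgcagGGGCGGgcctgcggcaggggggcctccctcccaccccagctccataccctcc

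The start of Rara-202 lay between a region 687 bp upstream, with signals of 105 and 108 in replicates 1 and 2, and a region 44 bp downstream, with signals of 87 and 95. The DR5 shown above fell in the gap between them. The start of Rara-205 lay inside a region with signals of 49 and 62, which at percentiles 58.9 and 63.8 was the weakest of the 18 Rara regions in replicate 1 and tied for the weakest in replicate 2. The start of Rara-203, the outermost, and that of Rara-206 and Rara-207 had no peak of either replicate within 1 kb. Away from starts the strongest Rara regions were both intronic. Their signals were 103 and 109 at chr11:98953476-98953625, and 96 and 106 at chr11:98963816-98964005.

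Rarb, the receptor known to be induced by its own ligand, was open at 1 of its 2 start groups. The open group holds the starts of Rarb-201, Rarb-202, Rarb-205, Rarb-206 and Rarb-207, and its region is the one with the response element. The gene Gm48162 overlaps the same region and starts within 1 kb of it. DNase I cutting has no strand, so the accessibility cannot be assigned to either gene. The outer group, that of Rarb-203 and Rarb-204, had no peak within 1 kb, and the nearest shared region was 21860 bp away. The CpG ratio was 0.60 at the open group, just under the limit, and 0.10 at the outer one. The other 9 Rarb regions were intronic, and the highest had signals of 58 and 62. The next, at chr14:16434516-16434685, had signals of 49 and 63 and also lies in the body of the neighbouring gene Top2b.

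Rarg, the receptor best known from epithelium and skin, had a shared region at 5 of its 6 start groups. The strongest was chr15:102247036-102247185, 536 bp upstream of the start of Rarg-202, with signals of 112 and 110 and percentiles of 98.5 and 96.5. Another region, with signals of 78 and 100, covered the start of Rarg-202 itself, and one 475 bp downstream had signals of 44 and 59. The outermost starts, those of Rarg-201 and Rarg-205, had 3 regions, with signals of 58 and 63, 42 and 55, and 38 and 60. The start of Rarg-204 was covered by a region with signals of 83 and 93, and that of Rarg-206 had a region 621 bp away with signals of 54 and 68. The start of Rarg-207 had a peak in replicate 1 alone, with a signal of 47. Away from starts the strongest Rarg regions had signals of 79 and 79, overlapping an exon, and of 65 and 81, in an intron.

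Rxra, the shared partner of the receptors, had a shared region at 3 of 5 start groups. A region 95 bp upstream of the outermost start, Rxra-204, had signals of 83 and 89, and the start of Rxra-201 was covered by a region with signals of 61 and 70. The start group of Rxra-201 and Rxra-206 had the highest CpG ratio of the 33, at 0.99, and a GC content of 78.3%. The start of Rxra-205 had a region 175 bp away with signals of 90 and 101. The starts of Rxra-202 and Rxra-203 had no peak within 1 kb and ratios of 0.12 and 0.15. The strongest Rxra region of all was intronic, chr2:27718316-27718465, with signals of 94 and 107 at percentiles 93.7 and 95.5, at 7733 bp from the nearest start. The next away from starts, also intronic, had signals of 81 and 81.

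Aldh1a2, the main enzyme of retinoic acid synthesis in embryonic mesoderm, has 1 annotated start, and its CpG ratio was 0.93. A region 364 bp upstream, chr9:71215256-71215425, had signals of 52 and 80. A region over the start itself had signals of 32 and 26, at percentiles 26.6 and 4.09. Replicate 2 had 3 more peaks within 1 kb of the start, with signals of 36, 36 and 40, that replicate 1 lacked. Elsewhere in the locus of a gene 80455 bp long there were 2 regions, with signals of 35 and 45 upstream and 25 and 32 in an intron, at percentiles between 11.7 and 36.9.

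Aldh1a3, a synthesis enzyme known from epithelia and the eye, had no shared region within 1 kb of any of its 5 starts. Its outermost start, that of Aldh1a3-201, lay inside a peak of replicate 1 with a signal of 40, at percentile 43.4. The hotspot around that peak had a −log10 q of 2.92, and replicate 2 had no peak within 7231 bp of the peak. Replicate 2 had a peak of signal 29, at percentile 7.22, 154 bp from the start of Aldh1a3-202, and replicate 1 had none there. Each replicate thus had a promoter peak, at different starts. Of the 4 shared regions of the locus, 2 lay within 1 kb of a start of the neighbour Lrrk1, and they were the strongest, with signals of 88 and 100, and 55 and 72. The others were an intronic region with signals of 43 and 62, which held a CTCF-type string, and an upstream region with signals of 47 and 72.

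Cyp26a1, a hydroxylase that the hormone strongly induces, had a peak near its start in replicate 2 alone. The peak lay 58 bp past the start with a signal of 33, at percentile 13.4 of its list, and its hotspot had a −log10 q of 1.66. The nearest peak of replicate 1 was 6051 bp from it. The locus held 2 shared regions. The upstream one, with signals of 31 and 41, lies in the body of the neighbouring gene Cyp26c1, another hydroxylase of the family. The downstream one, chr19:37704036-37704205, had signals of 33 and 59. It is printed on the plus strand because it was the strongest region of the locus, and its capitals mark a CTCF-type string that overlaps a GC box, and a TEAD-type string GGAATG on the minus strand.
Cyp26a1_2: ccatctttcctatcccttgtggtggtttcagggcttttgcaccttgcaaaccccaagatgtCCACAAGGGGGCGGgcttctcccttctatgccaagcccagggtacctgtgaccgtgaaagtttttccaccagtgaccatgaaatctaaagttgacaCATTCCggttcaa

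Cyp26b1, the hydroxylase best known from limb, skin and gonad, was open by a single weak region. It had signals of 32 and 57, at percentiles 26.6 and 57.1, and lay 278 bp from the start of Cyp26b1-204 and 911 bp from that of Cyp26b1-203. It was joined from 2 peaks that overlap in part, to a width of 250 bp, and the open call was lost when peaks had to overlap by at least 50% of the shorter one, when only the stronger 50% of each list was used, or with a window of 250 bp. The outer starts, Cyp26b1-201 and Cyp26b1-202, had no peak within 1 kb and lay 3181 bp from the nearest shared region. The strongest region of the locus was intronic, with signals of 81 and 95 at percentiles 88.2 and 90.8. Its 170 bases, chr6:84583456-84583625 on the plus strand, are shown for the 3 GC boxes in capitals, in a sequence of 72.9% GC. The next away from starts, also intronic, had signals of 63 and 70.
Cyp26b1_2: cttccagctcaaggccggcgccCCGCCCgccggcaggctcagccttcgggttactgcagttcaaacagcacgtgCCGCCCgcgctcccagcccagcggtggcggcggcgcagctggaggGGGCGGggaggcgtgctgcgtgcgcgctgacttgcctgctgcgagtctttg

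Stra6, the receptor for the retinol carrier, had no peak of either replicate within 1 kb of any of its 5 start groups. The CpG ratios of those groups were between 0.08 and 0.25, and the shared region nearest to any of them was 2663 bp away. The locus held 10 shared regions, with signals between 30 and 59 in replicate 1 and between 34 and 71 in replicate 2. Of these, 2 lay at starts of Ccdc33, one of them also at Gm16131, and 2 at Islr. The outer transcripts of Stra6 in this annotation run through Ccdc33, and 5 of the regions lie in the body of that gene. The highest signals, 59 and 71, were at a Ccdc33 start, and the next region by mean percentile, in an intron, had signals of 36 and 65.

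Of the 9 loci, those of Rxra, Rara and Rarg held the most shared regions. The receptor loci Rxra, Rara, Rarg and Rarb held 19, 18, 12 and 10 shared regions, and those of Stra6, Cyp26b1, Aldh1a2, Aldh1a3 and Cyp26a1 held 10, 5, 4, 4 and 2. The median over all protein-coding loci was 4, and 3951 of them held none. Single replicates moved 3 of these counts by over 1.5 times: replicate 2 alone had 7 peaks in the Aldh1a2 locus and 4 in the Cyp26a1 locus, and replicate 1 alone had 7 in the Aldh1a3 locus. With the stronger 50% of each list, Rarb had 3 regions, Cyp26b1 3, Stra6 1, Aldh1a2 1 and Cyp26a1 0. Without the flanks, Aldh1a2 had 2 regions, Aldh1a3 1 and Cyp26a1 0, and with flanks of 50 kb Rara had 28, Rarg 22, Stra6 16, Aldh1a3 14 and Aldh1a2 7. Loci differ in length, and per 10 kb the order changed. Rarg had 2.82 regions per 10 kb, Rara 2.68 and Rxra 1.78, which stood at percentiles 96.2, 95.4 and 84.2 of all loci. Rarb, in a locus of 408 kb, had 0.245 per 10 kb, at percentile 23.5. The enzymes and Stra6 were between 0.398 for Aldh1a2 and 1.18 for Cyp26b1, and the median of all loci was 0.791 with a lower quartile of 0.285.

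**Figure D3:**
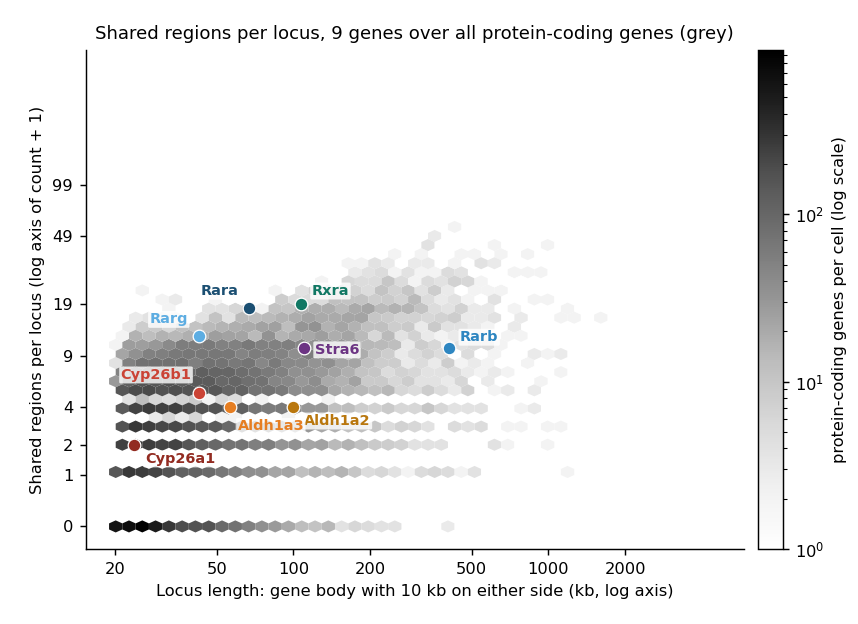
Shared regions per locus against locus length in kb, both on log axes, for the 9 genes (coloured points) over all 21911 protein-coding genes (grey, darker where more genes fall). Rarg, Rara and Rxra lie in the upper part of the grey field, with other loci of like length above them, and Rarb, with 10 regions in 408 kb, lies low in it.

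**Figure D4:**
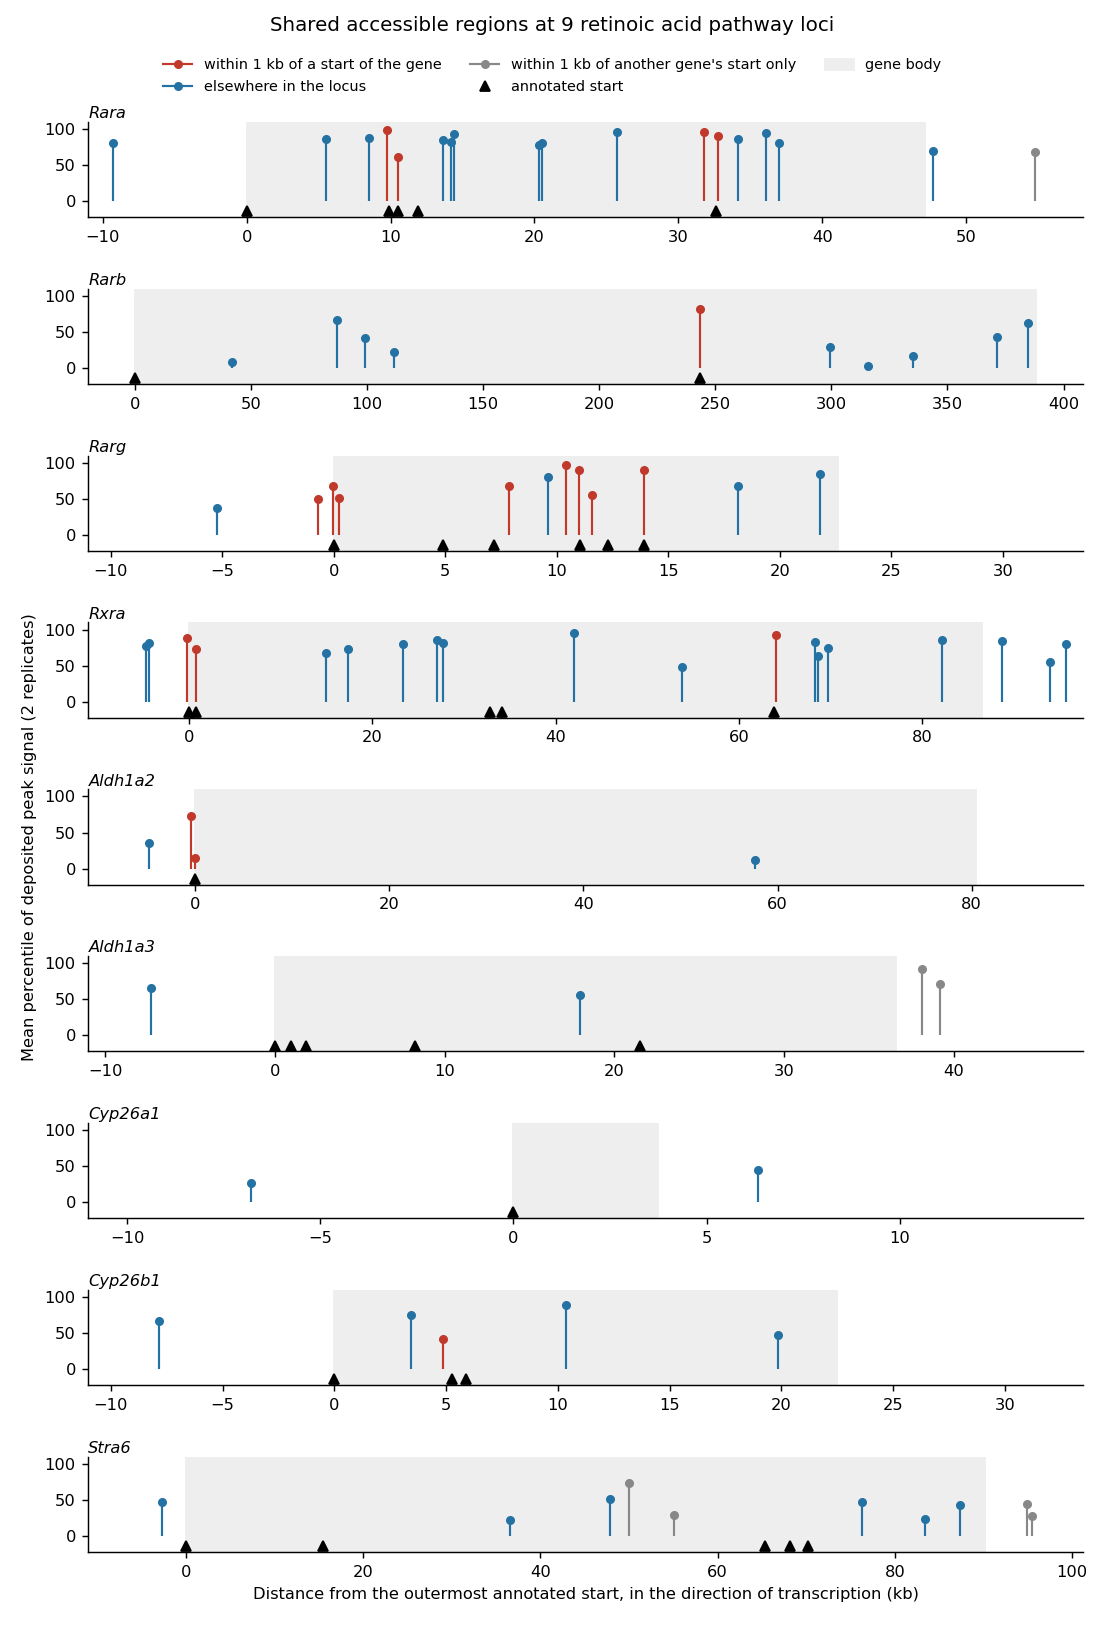
Shared regions of the 9 loci by distance from the outermost annotated start in the direction of transcription, in kb, with the height of each line giving the mean percentile of its deposited signal in the 2 replicates. Black triangles are annotated starts and the shaded band is the gene body; regions at the starts of Aldh1a3, Cyp26a1 and Stra6 are missing, and the grey regions lie at starts of neighbouring genes.

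Pooled over loci, the regions of the receptor loci were also the stronger ones. Their 59 regions had a median signal of 65 in replicate 1 and 78 in replicate 2, against 38 and 56 for the 25 regions of the enzymes and Stra6. In the receptor loci 47 of 59 regions were above the list median in both replicates, and in the other loci 8 of 25, beside 57.6% of all shared regions. Without Rarb, 44 of 49 receptor regions were. Rarb itself had a median of 35 and 41.5, lower than the medians of Cyp26b1 (60 and 59), Aldh1a3 (51 and 72) and Stra6 (37 and 45.5). Rarg, at 57 and 67, was below Cyp26b1 in replicate 1 and below Aldh1a3 in replicate 2. Only Rara (74 and 84) and Rxra (68 and 79) were above all the enzymes and Stra6 in both replicates. So not every receptor locus stood above the other genes. Regions at starts of the gene made up 16 of the 59 and 3 of the 25, and the part of this in the difference was not tested. The share at starts over all shared regions is not reported here.

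Shared hotspots covered 11.4% of the Rarg locus, 9.88% of the Rara locus and 6.51% of the Rxra locus. They covered 0.719% of the Rarb locus and between 1.43 and 3.19% of the loci of the enzymes and Stra6. The widest, of 1870 bp, lay at the start of Rarg-202.

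Of the 84 regions, 19 lay within 1 kb of a start of the gene itself and 7 only within 1 kb of a start of another gene, named above or, in the Rara locus, Gjd3. The centre lay upstream of the gene for 14 regions and downstream for 10. Of those centred in the gene body, 12 overlapped an exon by 1 bp or more and 48 were intronic. The same position counts over all shared regions are not reported here, so these are not set against a background. The replicates ranked the regions alike, with a Spearman rho of 0.92 over the 84 regions and 0.91 over all shared regions, a description of points that share a library. The signal was higher in replicate 2 at 74 of the 84, and at 90376 of all 105606, so a value of 60 does not mean the same in both lists. In the loci 21 of 105 peaks of replicate 1 and 25 of 110 of replicate 2 had no partner, with median percentiles of 43.4 and 36.9. Over the whole lists, 77.6% of replicate 1 peaks and 70.7% of replicate 2 peaks had a partner.

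**Figure D5:**
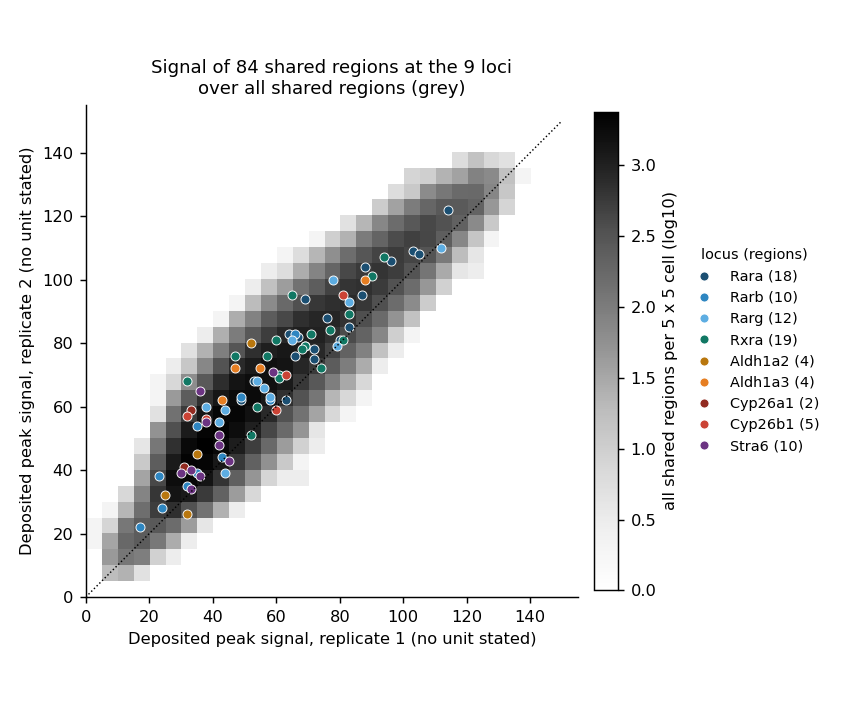
Deposited peak signal of the 84 shared regions in replicate 1 (x) and replicate 2 (y), coloured by locus, over all shared regions in grey (darker where more fall); the dotted line marks equal values. Most points lie above the line, and the Rara and Rxra points lie mostly higher up than those of Rarb, Aldh1a2 and Stra6.

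Short strings known from transcription factors were counted in the 84 regions beside all shared regions. The GC box GGGCGG was in 24 regions (28.6%, against 17.6% of all), spread over 8 of the loci. The CTCF-type string was in 8 regions (9.52%, against 9.25%), 4 of them in the Rxra locus. The GATA string AGATAA was in 3 regions (3.57%, against 10.1%), and the FOXA string TGTTTAC was in 1 (1.19%, against 4.77%). The AP-1 string TGANTCA was in 7 (8.33%, against 13.1%) and the HNF4 string AAAGTCC in 1 (1.19%, against 3.79%). The TEAD string GGAATG was in 9 (10.7%, against 10.6%), the ETS string CGGAAG in 6 (7.14%, against 7.80%) and the NFY string CCAATCA in 3 (3.57%, against 3.01%). Both strands were searched, and these shares were not tested.

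Among 37 other genes of the pathway, 31 had an open promoter (83.8%), beside the 66.4% of all genes. All 7 cofactors were open, both other RXR genes Rxrb and Rxrg, and the synthesis enzyme Aldh1a1. Of the genes for retinol uptake, storage and oxidation 11 of 12 were open, of the known target genes 9 of 11, and of the binding proteins 1 of 3. Among the genes without an open promoter, Cyp26c1 and Stra8 had no promoter peak in either replicate, Crabp1 had one in replicate 2 alone, and Crabp2 and Cdx1 had one in replicate 1 alone. The Crabp genes encode carriers of retinoic acid inside the cell. Loci with many regions included those of the coactivator Ncoa2 with 18, the homeobox gene Meis1 with 17, the coactivator Ncoa3 with 15 and the corepressor Nrip1 with 14.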

How the data were processed

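DNase-seq of 2 stomach replicates was analysed from 2 peak and 2 hotspot lists on mm10, as the authors deposited them. Peaks carry a deposited signal with no stated scale, used only for ranks within a list. Hotspots carry a deposited −log10 q value of up to 100. Both were made per replicate. Aligner, caller and read depth: not given in the sources used here. Coordinates were read on RefSeq GRCm38.p6, the assembly of mm10, and genes from GENCODE M21.

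The 9 genes, the lists and strings were chosen with earlier results of these data known. All 9 genes were named. Other pathway genes were named from a list of 37 when not open, or when among the 5 with most regions; some that met this rule are not reported here. Regions were named at starts, for the strongest 2 elsewhere, and for DR5, DR2 or DR1 matches. Peaks overlapping by 1 bp were joined, and percentiles rank within each list (Python 3.11.15, pandas 2.3.3, pysam 0.24.0). Overlap and repeat searches were tested on simulated data. The alternatives were 1 replicate, 50% overlap, the stronger 50% of peaks, hotspots, other windows and flanks, and a strict half-site.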

Additional observations from a re-analysis of the deposited data

How the results depend on the processing

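The count of genes with an open promoter was 6 and stayed between 5 and 8, and the share of all genes moved too. It was 5 with 50% overlap, with the stronger 50% of peaks and with a window of 250 bp. In those settings 65.6%, 59.2% and 62.6% of all genes were open, beside 66.4% by the main rule. The share was 69.4% without replicate 1 and 68.2% without replicate 2. Leaving out 1 replicate gave 7 to 8 open genes, 14947 to 15202 open genes genome-wide, 16 to 18 start groups (15 with both), 105 to 110 peaks in the loci (84 shared regions), a median of 11 to 12 per locus (10), 102 to 107 hotspots (77) and 0 to 1 DR5 matches in a peak. The DR5 count was 0 without replicate 1, since the peak of replicate 2 holds 14 of the 17 bases of the Rarb element, and 0 with the strict half-site. The stronger 50% of peaks left 55 shared regions and a median of 3 per locus. Flanks of 50 kb gave 131 regions, and hotspots at the highest −log10 q alone gave 21. Regions of single loci moved by over 1.5 times in 16 of 54 cases. No paired analysis was possible because there is 1 group. The unknown depth limits weak sites.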
